A study of Rattus norvegicus with 20 samples.

Results

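The genes described here encode the subunits of the mitochondrial respiratory chain and ATP synthase, together with the assembly factors that share their names. Members were taken from the deposited table by gene name: 13 names starting with Mt-, and nuclear names starting with Nduf, Sdha to Sdhd, Uqcr, Cox4 to Cox8 or Atp5. The rule found 115 rows of the 32883 in the table, of which 13 are encoded in mitochondrial DNA and 102 in the nucleus. The nuclear rows fall into 7 core and 31 accessory subunits of complex I, 4 subunits of complex II, 9 of complex III, 21 of complex IV, 17 of complex V, 12 assembly factors (Ndufaf and Sdhaf genes) and 1 pseudogene, Cox6c-ps1. Cytochrome c1, Cyc1, lies outside the name rule and is given with the related genes.

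Liver RNA was sequenced from male rats in 4 groups of 5 rats, with 5 libraries per group. The CON group was given sodium carboxymethylcellulose (CMC-Na) at 0.5%, and the KYDS group hydrocortisone, a glucocorticoid, at 25 mg/kg. The BGZ_L group was given a powder named BGZ_L at 0.9 g/kg, and the KYDS+BGZ_L group both agents at the same doses. The series title concerns Psoraleae Fructus, a plant medicine, in rats with kidney-yang deficiency syndrome, whose initials are those of the KYDS group, while the labels do not spell out BGZ_L. The sources used here do not state the strain, age, route or length of dosing, nor whether the other groups also got CMC-Na. Whole liver was used, so fewer cells of a type and less RNA per cell cannot be told apart in any value below.

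The respiratory chain passes electrons from NADH and succinate through complexes I to IV to oxygen, and complex V uses the resulting proton gradient to make ATP. Mitochondrial DNA encodes a few hydrophobic core subunits of complexes I, III, IV and V, which are transcribed as long polycistronic RNAs by the polymerase Polrmt. All other subunits, including the whole of complex II, are made from nuclear genes and imported, so an assembled complex needs products of both genomes. Hepatocytes are rich in mitochondria, and mitochondrial transcripts form a large part of liver RNA.

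Values are read as TPM, relative transcript abundances with a near-constant sum per library, which are scaled for gene length. The sources used here do not state the lengths or the counting behind them, so levels of different genes are compared only roughly. For comparisons between libraries they were divided by a trimmed-mean scaling factor (scaled TPM), so a low factor raises the values of its library. Differences are log2 fold changes of scaled TPM plus 0.5 from limma, with Benjamini-Hochberg adjustment over the 11860 genes tested and a threshold of 0.05. Of the members, 106 were tested, all 13 mitochondrial and 93 nuclear. The other 9 were Sdhaf1, Ndufs6, Cox6a2, Cox7a1, Cox7b2, Cox8c, Atp5md, Cox6c-ps1 and the second row of Ndufa10l1, which were too low. Column totals lay between 914343 and 983962 TPM. The scaling factors ran from 0.220 in CON 2 to 2.11 in KYDS 2, and without any scaling the median of all genes shifted by 1.03 on the log2 scale in KYDS against CON and by 0.63 in KYDS+BGZ_L against BGZ_L. Hepatocyte markers were present throughout. Their summed scaled TPM ran from 5342 to 9182 in CON, 5326 to 6406 in BGZ_L, 6254 to 60073 in KYDS and 8722 to 43145 in KYDS+BGZ_L. Of the 9 markers, 2 rose in KYDS against CON, and 4 rose and 1 fell in KYDS+BGZ_L against BGZ_L. Of 7 Kupffer cell markers Cd163 alone rose, in both comparisons, and 2 of 2 neutrophil markers tested rose in the second. Of the endothelial, stellate, cholangiocyte, erythroid and lymphocyte markers tested 0 passed. Markers of striated muscle summed to at most 2.37 scaled TPM, with Myl2 at 0 in every library.

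Among the nuclear members that rose in rats given hydrocortisone and BGZ_L, described below, 3 have a match to the NRF1, ETS or YY1 motif, elements long linked to respiratory chain genes, in the 120 bases before the RefSeq gene start. They are shown because these motifs are shared across many members. Each line gives those bases on the gene's strand of GRCr8, 5′ to 3′, ending at the base before the start, with the motif in capitals.
Ndufv3 (chr20:9613666-9613785, plus strand, NRF1 motif): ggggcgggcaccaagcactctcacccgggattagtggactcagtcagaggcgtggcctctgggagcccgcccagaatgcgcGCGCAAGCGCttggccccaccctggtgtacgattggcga
Atp5po (chr11:44657484-44657603, minus strand, NRF1 motif): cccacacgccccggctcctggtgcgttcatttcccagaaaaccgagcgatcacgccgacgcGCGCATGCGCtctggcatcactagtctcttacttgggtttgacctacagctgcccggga
Ndufaf8 (chr10:105879788-105879907, plus strand, ETS motif): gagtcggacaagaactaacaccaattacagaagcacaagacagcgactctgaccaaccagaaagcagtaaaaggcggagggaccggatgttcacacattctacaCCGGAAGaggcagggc

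Promoter windows of 300 bases, 250 before and 50 after the start, were found by symbol for 85 of the 98 nuclear symbols. The motifs were searched as exact letters on both strands, and matches of the NRF1, ETS and YY1 motifs overlapped each other in 1 member window, where both were of NRF1 (Ndufa11). The NRF1 motif (GCGCA and GCGC with 1 base of any kind between them) stood in 18 of 85 windows (21.2%), against 4.71% of all 27457 windows. The ETS motif CCGGAAG stood in 24 (28.2%, against 9.22%) and the YY1 motif AAGATGGC in 17, against 3.44% of all windows. At least 1 of the 3 was found in 48 members (56.5%), against 15.5% of all windows. A palindrome of the glucocorticoid response element (GNACA and TGTNC with 3 bases between them) was found in 0 member windows and 0.422% of all, and the TATAAA box in 7 (8.24%) and 14.3%. Among the 17 members with a window that rose in KYDS+BGZ_L against BGZ_L, 5 held at least 1 of the NRF1, ETS and YY1 motifs. That was a smaller share than the 56.5% of all members with a window, and the difference was not tested. A match describes letters only. Windows were matched by symbol, so for Ndufv3, which has a pair of rows in the table, the row that the window belongs to is not known.

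The mean share of mitochondrial transcripts in the TPM was lower in both groups given hydrocortisone than in both groups without it. Their share in the 5 CON libraries was 65.6%, 90.1%, 80.8%, 68.5% and 70.3%. In BGZ_L it was 39.6%, 74.3%, 81.9%, 61.8% and 79.2%. In KYDS it was 43.2%, 45.2%, 19.2%, 68.9% and 35.3%, and in KYDS+BGZ_L 26.6%, 70.2%, 56.8%, 35.1% and 55.7%. The share was under 60%, a limit chosen after the values were seen, in 8 of 10 libraries with hydrocortisone and in 1 of 10 without it, and the groups overlapped through KYDS 4, KYDS+BGZ_L 2 and BGZ_L 1. Group means were 75.1% ± 10.2 in CON, 67.3% ± 17.3 in BGZ_L, 42.4% ± 18.0 in KYDS and 48.9% ± 17.7 in KYDS+BGZ_L (SD, n = 5 each). Ribosomal RNA genes held 0.682% to 35.6% of the TPM outside mitochondrial genes, with the highest values in CON 2 (35.6%), BGZ_L 1 (34.1%) and CON 5 (27.9%), and their part in these shares was not tested.

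Nuclear members held 0.694% ± 0.447 of all TPM in CON and 0.661% ± 0.388 in BGZ_L, against 2.15% ± 0.970 in KYDS and 1.98% ± 0.899 in KYDS+BGZ_L (SD, n = 5 each). Because a lower mitochondrial share raises every other share, the same sum was also taken over TPM outside mitochondrial genes. It was then 2.63% ± 0.870 in CON, 2.36% ± 1.35 in BGZ_L, 3.57% ± 0.795 in KYDS and 3.78% ± 0.781 in KYDS+BGZ_L, and all 4 ranges overlapped. Mitochondrial TPM per nuclear member TPM ran from 49.6 to 442 in CON, 50.9 to 302 in BGZ_L, 6.01 to 92.4 in KYDS and 8.84 to 70.9 in KYDS+BGZ_L. These sums are descriptions with no test.

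**Figure D1:**
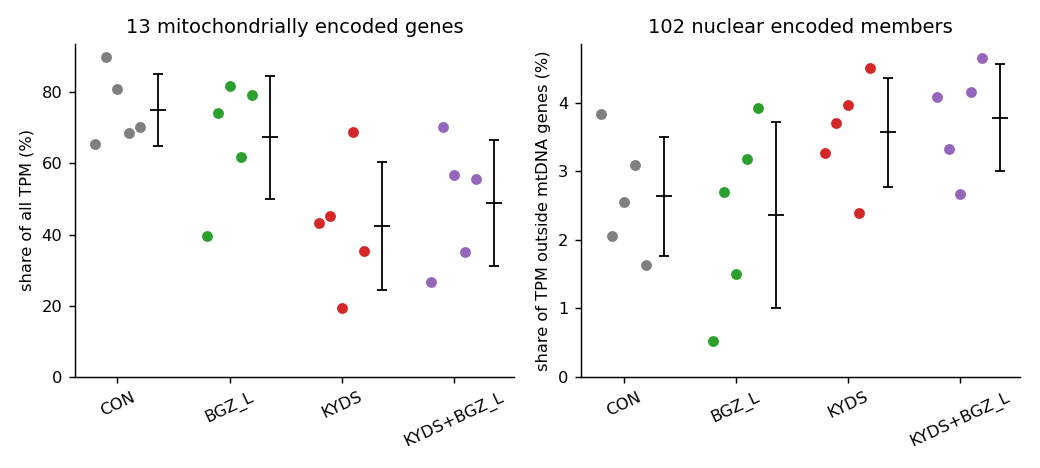
Share of TPM per library (points, in the order of replicate numbers) with the mean and SD beside them, for the 13 mitochondrial genes over all TPM (left) and for the 102 nuclear members over TPM outside mitochondrial genes (right). The mitochondrial share was under 60% in 8 of 10 hydrocortisone libraries, while the nuclear shares of all 4 groups overlapped.

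Albumin, Alb, is the main secreted protein of hepatocytes. Its share of the TPM outside mitochondrial genes ran from 0.707% to 1.67% in CON, 0.227% to 0.925% in BGZ_L, 0.837% to 7.64% in KYDS and 1.42% to 4.79% in KYDS+BGZ_L. Its highest value stood in KYDS 3, which had the lowest mitochondrial share of all, and its lowest KYDS value in KYDS 4, which had the highest mitochondrial share of that group. The reverse held in BGZ_L 1. That library had the lowest albumin share of all (0.227%) and the lowest mitochondrial share among libraries without hydrocortisone (39.6%). The part of albumin in the results below was not tested.

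Most mitochondrially encoded subunits fell in rats given hydrocortisone alone, on the scaled values. In KYDS against CON, 8 of 13 mitochondrial genes fell and 0 rose, where 3.22% of all genes tested fell and 5.67% passed in either direction (limma, adjusted p under 0.05). All 13 fold changes were below 0, with a median of -2.42 on the log2 scale, against -0.006 over all genes. An unadjusted p under 0.05 was reached by 12 of 13.

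Complex I holds 7 of the mitochondrial genes, the membrane-arm subunits of the NADH dehydrogenase. Mt-nd4l (ENSRNOG00000031053) had scaled TPM of 8323, 76931, 21058, 7700 and 14423 in CON and 2966, 3155, 1195, 5879 and 2155 in KYDS. Every KYDS library lay below every CON library, and CON 2 stood far above the other libraries. Mt-nd4l fell by 2.67 on the log2 scale (SE 0.58, adjusted p = 0.0152, limma), and it was the only mitochondrial gene whose call held with each of the 20 libraries left out in turn. In deposited TPM, before scaling, its values ran from 7853 to 16950 in CON and from 2183 to 7781 in KYDS, also without overlap.

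Also in complex I, Mt-nd2 fell by 2.55 (SE 0.59, adjusted p = 0.021), Mt-nd5 by 2.43 (SE 0.60, adjusted p = 0.0266) and Mt-nd1 by 2.42 (SE 0.58, adjusted p = 0.0242), all by limma. Mt-nd4 had a log2 fold change of -1.85 (adjusted p = 0.0533) and Mt-nd3 of -2.21 (adjusted p = 0.055), and neither passed. Mt-nd6 is the only protein gene on the light strand of mitochondrial DNA. It was listed at 0 in 12 of 20 libraries, all 5 of KYDS+BGZ_L among them, and at 4511 TPM in BGZ_L 3, and its log2 fold change of -2.79 had an SE of 2.90.

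Mt-cyb encodes cytochrome b, the mitochondrial subunit of complex III, and it fell by 2.41 (SE 0.63, adjusted p = 0.0329, limma). In complex IV, Mt-co3 fell by 2.53 (SE 0.68, adjusted p = 0.0367) and Mt-co1, the catalytic subunit, by 2.34 (SE 0.62, adjusted p = 0.034). Scaled TPM of Mt-co1 was 101950, 777802, 192058, 113322 and 350431 in CON and 37856, 36405, 24525, 126245 and 42064 in KYDS. KYDS 4 lay within the CON range, and the other 4 KYDS libraries lay below it. Mt-co2 did not pass (-2.18, adjusted p = 0.0719).

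In complex V, Mt-atp8 fell by 2.61 (SE 0.59, adjusted p = 0.018, limma), and Mt-atp6, which did not pass, had a log2 fold change of -1.88 (adjusted p = 0.0689). The reading frames of Mt-atp8 and Mt-atp6 overlap, as do those of Mt-nd4l and Mt-nd4, and the sources used here do not say how reads in the overlap were counted, so these 4 values are uncertain. Of the 8 calls, 5 had groups that did not overlap and 3 (Mt-co1, Mt-co3 and Mt-atp8) overlapped. Overlap was not counted over all genes called. The mitochondrial genes share their libraries, with CON 2 the highest CON library in all 13, so these separations are not independent.

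The number of mitochondrial calls depended on single libraries and on the scaling. It was 1 without CON 2, KYDS 3 or KYDS 5, 4 without CON 3, 5 without KYDS 1 or KYDS 2, and 12 without CON 4, BGZ_L 3 or KYDS 4. For fits with a library left out, counts over all genes are not given here. Among all genes, 290 were higher and 382 lower with the scaling, 5867 and 66 without it, and 75 and 17 with TPM recomputed over nuclear genes. The mitochondrial count was 0 without scaling, with TPM recomputed over nuclear genes, and when only the CON and KYDS libraries were fitted, and all 13 fold changes were below 0 without scaling and with nuclear TPM, with medians of -0.98 and -2.27.

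**Figure D2:**
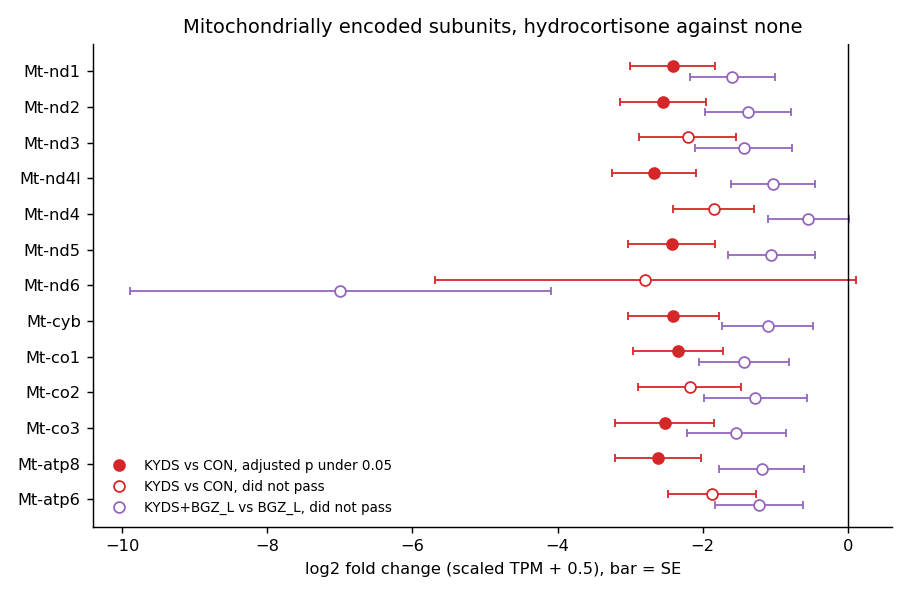
Log2 fold change of scaled TPM plus 0.5 for the 13 mitochondrially encoded subunits, ordered by complex, in KYDS against CON (red) and KYDS+BGZ_L against BGZ_L (purple), with SE bars from limma. Filled points passed an adjusted p under 0.05: 8 genes in the first comparison and 0 in the second, where all 13 also lay below 0.

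With BGZ_L given to both sides the mitochondrial genes lay lower under hydrocortisone, and none passed the test. In KYDS+BGZ_L against BGZ_L, 0 of 13 fell, where 9.11% of all genes tested fell and 17.1% passed in either direction. All 13 fold changes were below 0, with a median of -1.27 against 0.014 over all genes, and 6 had an unadjusted p under 0.05 (limma). Mt-nd1 was the closest, at -1.59 (SE 0.58, adjusted p = 0.0664). Its scaled TPM was 95671, 81107, 175795, 45513 and 69845 in BGZ_L and 13312, 53081, 35979, 17799 and 38728 in KYDS+BGZ_L, so that only KYDS+BGZ_L 2 lay within the BGZ_L range. Mt-nd4 had the smallest difference, at -0.55 (SE 0.56), and it was the 1 mitochondrial member above 0 without scaling, at 0.36, below the median of 0.63 of all genes there. Mt-nd6 had -6.99 (SE 2.90), a value that depends on the constant added because KYDS+BGZ_L was listed at 0. A single mitochondrial gene passed when CON 2, KYDS 3 or KYDS+BGZ_L 2 was left out (Mt-nd1) or BGZ_L 5 (Mt-nd6). The difference between the 2 hydrocortisone effects was tested as an interaction, with 0 of 13 mitochondrial genes called and 0 at an unadjusted p under 0.05 (limma), so the effects were not shown to differ. Among all genes the interaction called 0.0253%, 0.00843% higher and 0.0169% lower.

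Within mitochondrial RNA the shares of single genes were also compared, with no test. Mt-co1 held 21.0% ± 4.58 of the mitochondrial TPM in CON and 21.1% ± 3.89 in KYDS, and Mt-cyb 5.59% ± 0.750 and 5.36% ± 0.152 (SD, n = 5 each). Mt-atp6 held 11.7% ± 1.48 in CON, 12.7% ± 2.02 in BGZ_L, 16.4% ± 2.85 in KYDS and 13.9% ± 1.31 in KYDS+BGZ_L. The ratio of Mt-atp8 to Mt-atp6 was 1.98 ± 0.483 in CON, 1.68 ± 1.06 in BGZ_L, 1.21 ± 0.380 in KYDS and 1.54 ± 0.420 in KYDS+BGZ_L. That of Mt-nd4l to Mt-nd4 was 1.06 ± 0.367, 0.961 ± 0.353, 0.598 ± 0.208 and 0.670 ± 0.168 in the same order. The ranges of all 4 groups overlapped for both ratios, which were not tested. How reads in the overlapping frames were counted is not known, so both ratios are uncertain as measures of relative transcript level.

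**Figure D3:**
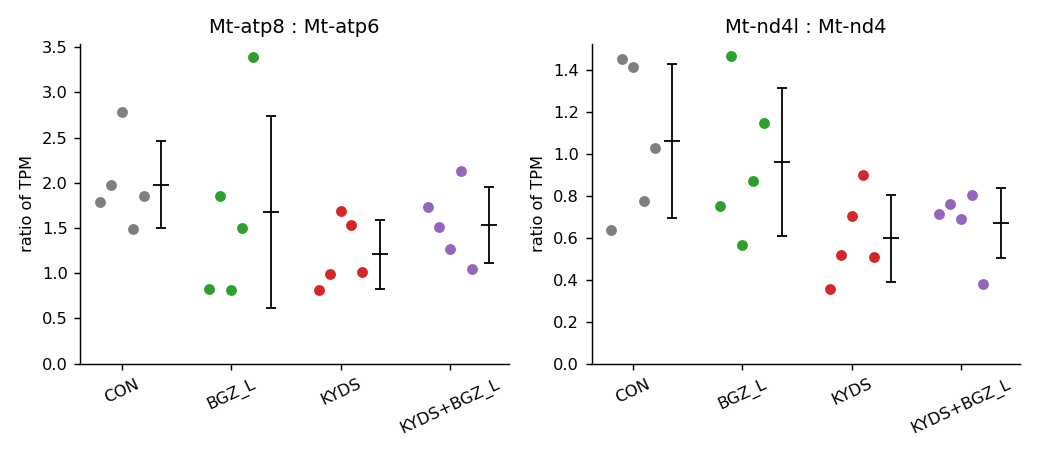
Ratio of TPM of Mt-atp8 to Mt-atp6 (left) and of Mt-nd4l to Mt-nd4 (right), pairs of overlapping reading frames, per library (points) with mean and SD. Means were lowest in KYDS, at 1.21 and 0.598, and the ranges of the 4 groups overlapped.

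The nuclear members spanned levels from 0.400 to 824 scaled TPM as means over the 20 libraries, with a median of 48.1 among those tested. The highest were Atp5f1e (824 scaled TPM), Atp5me (763) and Uqcrq (762), small subunits of complexes V and III, followed by Atp5f1b (534), the catalytic beta subunit of ATP synthase, and Cox4i1 (415). By comparison, the mitochondrial genes ranged from 1027 (Mt-nd6) to 167612 scaled TPM (Mt-co1). Of the muscle and testis isoforms, Cox6a2 (0.0791), Cox7a1 (0.0363) and Cox8c (0.00895) were near 0. In their highest libraries Cox6b2 had 2.38 and Cox8b 4.17 scaled TPM, both in BGZ_L. The liver form Cox6a1 ran from 47.0 to 285.3 scaled TPM over the libraries. Ndufs6 had a mean of 0.0246, and 2 rows named as its copies (LOC100912599 and LOC679739) had means of 29.2 and 29.8. A row named as a copy of Ndufa1 (LOC108348144) had 127.7. A row described as like ATP synthase subunit b (LOC100911417) had 8.38, beside 10.1 for Atp5pb, and a row described as similar to the complex I B9 subunit (LOC684509), the product of Ndufa3, had 5.14, beside 192.7 for Ndufa3. Reads can be split between such rows, so the values of Ndufs6, Ndufa1, Atp5pb and Ndufa3 are uncertain.

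Of the nuclear members, the Ndufv3 and Cox6b1 rows described next rose with hydrocortisone alone. In KYDS against CON, 2 of 93 rose (2.15%) and 0 fell, where 2.45% of all genes tested rose and 3.22% fell. Their median log2 fold change was 0.25, against -0.006 over all genes, and 67 of 93 were above 0. An unadjusted p under 0.05 was reached by 16, of which 12 were above 0. No member of complexes II, III or V and no assembly factor passed.

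Cox6b1 (ENSRNOG00000024309) encodes a subunit at the contact between the monomers of the complex IV dimer. Its scaled TPM was 104.7, 71.8, 97.1, 95.2 and 102.5 in CON and 137.3, 132.5, 258.3, 134.1 and 234.4 in KYDS. Each KYDS library lay above each CON library. It rose by 0.87 on the log2 scale (SE 0.25, adjusted p = 0.043, limma), and passed in 10 of the 20 fits that left a library out, with an adjusted p of 0.119 without CON 2. A second row of the same symbol (ENSRNOG00000034161) had -0.99 (SE 0.65).

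The row of Ndufv3 with the identifier ENSRNOG00000027593 encodes an accessory subunit of the NADH-binding arm. It was listed at 0 in 4 CON libraries and had 10.3 scaled TPM in the fifth, and 44.7, 47.4, 115, 8.31 and 61.5 in KYDS. KYDS 4 overlapped CON and the other 4 lay above it. Its log2 fold change of 5.52 (SE 1.07, adjusted p = 0.00923, limma) depends on the constant added, and the call held in all 20 fits that left a library out. The row met the filter for testing, in every comparison, only through the libraries given hydrocortisone, where it was high. The steadiness of its call is therefore no separate support. The other Ndufv3 row (ENSRNOG00000001182) had 78.9 to 206 scaled TPM in CON and 91.7 to 313 in KYDS, with a log2 fold change of 0.36 (SE 0.34). The sources used here do not say how reads were divided between the rows.

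The 2 nuclear calls of KYDS against CON became 8 higher without KYDS 4 and 2 higher with 2 lower without CON 4. The count was 1 without CON 1, 2, 3 or 5, BGZ_L 5, KYDS 1, 3 or 5, or KYDS+BGZ_L 3 or 5. Counts over all genes in these fits are not given here. Without scaling 65 of 93 nuclear members were higher, at a median of 1.62, beside a shift of 1.03 in the median of all genes. Of all genes, 5867 were then higher and 66 lower. With TPM recomputed over nuclear genes 1 member, the Ndufv3 row above, was higher, where 75 of all genes were higher and 17 lower.

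In rats that received BGZ_L, nuclear subunits of complexes I, III, IV and V rose with hydrocortisone. In KYDS+BGZ_L against BGZ_L, 20 of 93 rose (21.5%) and 0 fell, where 8.02% of all genes tested rose and 9.11% fell. The median log2 fold change was 0.65, against 0.014 over all genes, and 79 of 93 were above 0. An unadjusted p under 0.05 was reached by 44, of which 42 were above 0 (limma). Of the 20, the groups did not overlap in 14. Overlap was not counted over all genes called, so this describes the 20 and sets them apart from no other genes. Both calls of KYDS against CON were among the 20. The other 18 were called here and not there. The interaction called 0 of 93, with 2 at an unadjusted p under 0.05 (limma), so a difference between the 2 effects was not shown. Those 2 were Cox6b2, a testis isoform, at 1.59 (SE 0.57), and Ndufa1 at 3.66 (SE 1.49), and below 0 the smallest p values belonged to Atp5pb (-0.65) and Cox8b (-0.72).

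The count by complex was 8 of 29 accessory and 1 of 7 core subunits of complex I, 0 of 4 of complex II, 2 of 9 of complex III, 5 of 17 of complex IV, 3 of 16 of complex V and 1 of 11 assembly factors. Medians were 0.79 and 0.43 in the accessory and core subunits of complex I, 0.25 in complex II, 0.60 in complex III, 0.78 in complex IV, 0.77 in complex V and 0.11 in the assembly factors. These are descriptions of each group, and differences between the groups were not tested.

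**Figure D4:**
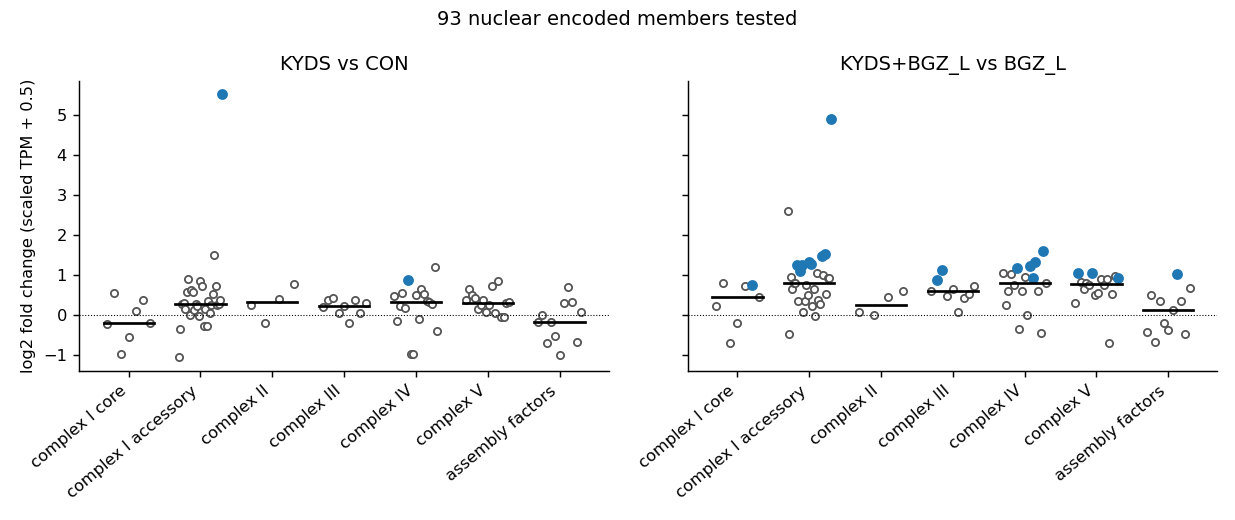
Log2 fold change of scaled TPM plus 0.5 for the 93 nuclear members tested, by complex, in KYDS against CON (left) and KYDS+BGZ_L against BGZ_L (right). Filled blue points passed an adjusted p under 0.05 (2 and 20 members), open points did not, and lines are medians.

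Within complex IV, Ndufa4, a subunit once assigned to complex I, had scaled TPM of 50.02, 72.4, 61.0, 53.3 and 70.7 in BGZ_L and 269, 100.5, 125.9, 310 and 196.7 in KYDS+BGZ_L. All 5 hydrocortisone libraries lay above all BGZ_L libraries. Ndufa4 rose by 1.59 on the log2 scale (SE 0.38, adjusted p = 0.00851, limma). In KYDS against CON it had 1.19 (SE 0.38, adjusted p = 0.0638), where KYDS 4, at 60.4, lay within the CON range of 45.0 to 77.1. Its paralog Ndufa4l2, which is induced by low oxygen in other settings, had at most 2.68 scaled TPM in any library and a log2 fold change of 0.78 (SE 0.41) in this comparison.

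Cox6b1 (ENSRNOG00000024309) had 97.9, 123.9, 106.1, 85.0 and 91.0 scaled TPM in BGZ_L and 252.6, 166.8, 191.2, 340.1 and 216.2 in KYDS+BGZ_L, with no overlap. It rose by 1.18 (SE 0.25, adjusted p = 0.00468, limma). Cox7c, Cox7a2l2 and Cox7b, small subunits of complex IV (the table describes Cox7a2l2 as a polypeptide like subunit VIIa), rose by 1.31, 1.21 and 0.93. Cox4i1, the main regulatory subunit, had 304.7, 266.4, 208.9, 322.7 and 289.2 in BGZ_L and 717.7, 339.4, 497.1, 756.8 and 631.1 in KYDS+BGZ_L. Its groups did not overlap, and its log2 fold change of 1.04 (SE 0.36) just missed the threshold (adjusted p = 0.0535, limma). Cox5b had 1.02 and Cox5a 0.59, and neither passed.

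In complex I, Ndufb9, an accessory subunit of the membrane arm, had 121.4, 70.9, 51.3, 90.4 and 109.8 scaled TPM in BGZ_L and 266.3, 167.1, 242, 230.7 and 301.1 in KYDS+BGZ_L. The groups did not overlap, and it rose by 1.48 (SE 0.34, adjusted p = 0.00737, limma). Ndufc2 rose by 1.52, Ndufb11 by 1.33, Ndufb2 by 1.26, Ndufa7 and Ndufa3 each by 1.23, and Ndufa6 by 1.09. The Ndufv3 row ENSRNOG00000027593 rose by 4.89 (SE 1.07, adjusted p = 0.00606). It was 3.52, 0.599, 0, 0 and 35.3 scaled TPM in BGZ_L and 61.3, 32.3, 30.3, 159 and 89.5 in KYDS+BGZ_L, and BGZ_L 5 overlapped the hydrocortisone group.

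Of the 7 nuclear core subunits of complex I, which between them carry the flavin and iron-sulfur clusters, only Ndufv1, the NADH-binding subunit, passed, at 0.75 (SE 0.25, adjusted p = 0.0423, limma). Ndufs1, the largest subunit, had 0.21 (adjusted p = 0.76, limma). Ndufs3 had -0.70 in this comparison and -0.98 in KYDS against CON (adjusted p = 0.155 and 0.0843). The assembly factor Ndufaf3 had -0.68 and -0.71 (adjusted p = 0.0657 and 0.0906). Without scaling Ndufs3 had 0.19 and 0.44 and Ndufaf3 0.18 and 0.65, all below the medians of all genes in those comparisons, 0.63 and 1.03.

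Complex II is made wholly from nuclear genes, and none of its 4 subunits passed in any comparison. Sdha, the flavoprotein, had 0.06 in KYDS+BGZ_L against BGZ_L and 0.24 in KYDS against CON, and Sdhb, the iron-sulfur subunit, had -0.01 and -0.20. The membrane anchor Sdhc had 0.45 and 0.40 in the same order. The other anchor, Sdhd, had 0.60 and 0.78 (adjusted p = 0.224 and 0.156, limma), and in KYDS against CON 1 of the 4 had an unadjusted p under 0.05. Their SE ran from 0.23 (Sdhb) to 0.38 (Sdhc).

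In complex III, the row Uqcrb ENSRNOG00000024967 rose by 1.13 (SE 0.26, adjusted p = 0.00755, limma), from 16.7, 19.2, 24.2, 14.9 and 20.5 scaled TPM to 43.2, 28.1, 42.0, 55.3 and 45.2. Uqcr11 rose by 0.88. The core proteins Uqcrc1 and Uqcrc2 had 0.65 and 0.07, and the Rieske protein Uqcrfs1 had 0.41, and none of these passed. In complex V, Atp5f1b had 339.4, 345, 306.6, 346.6 and 380.5 scaled TPM in BGZ_L and 804.9, 497.5, 602.5, 904.8 and 826.7 in KYDS+BGZ_L. It rose by 1.05 (SE 0.30, adjusted p = 0.0222, limma), with no overlap. Atp5mc1, a c-ring gene, rose by 1.05 and Atp5po, the peripheral-stalk subunit, by 0.91. The alpha subunit Atp5f1a had 0.30 (adjusted p = 0.701), and the inhibitor Atp5if1 had 0.74 (adjusted p = 0.0649), its groups apart.

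**Figure D5:**
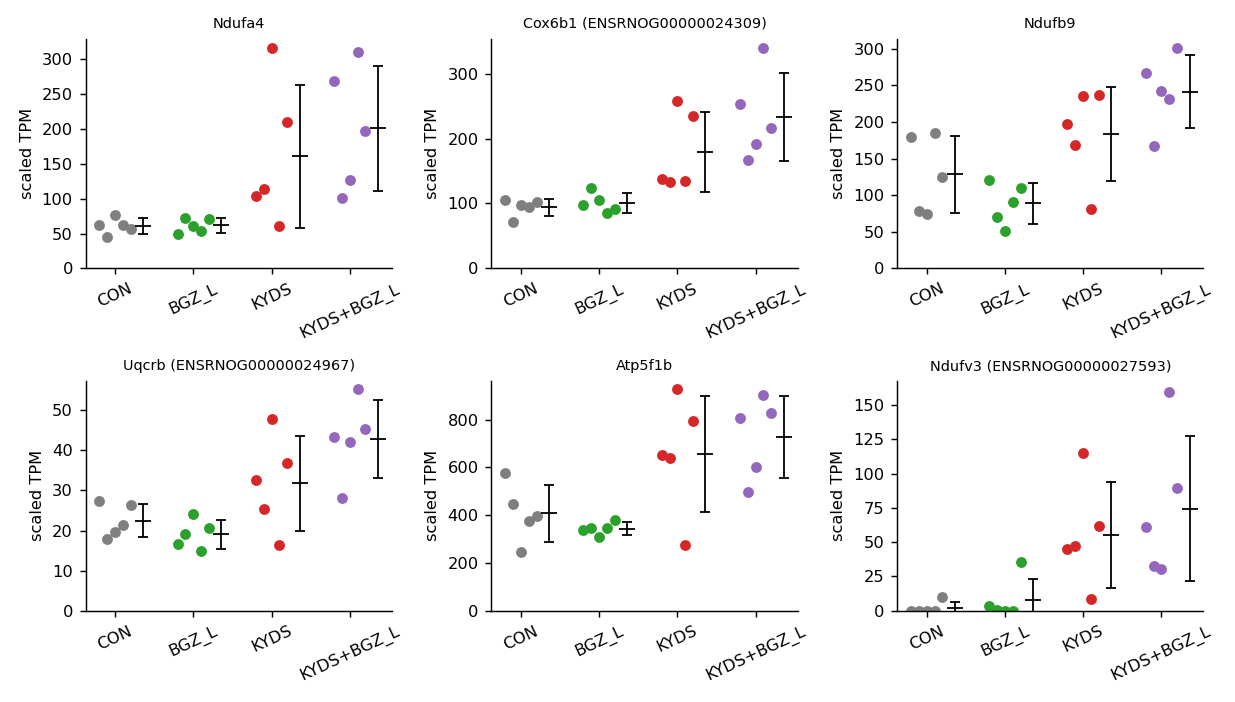
Scaled TPM per library (points, in the order of replicate numbers) of 6 nuclear members, with mean and SD beside each group. Ndufa4, Cox6b1, Ndufb9, Uqcrb and Atp5f1b lay higher in all 5 KYDS+BGZ_L libraries than in all 5 BGZ_L libraries, and Ndufv3 overlapped through BGZ_L 5.

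The 20 calls became 8 without KYDS+BGZ_L 1, 10 without KYDS+BGZ_L 4 or KYDS+BGZ_L 5, 11 without BGZ_L 3 and 12 without BGZ_L 4. Counts over all genes in these fits are not given here. In all fits that left a library out, 8 members kept their call: Ndufa4, Ndufa7, Ndufb9, Cox6b1, Uqcrb, Ndufv3, Cox7c and Cox7a2l2. With TPM recomputed over nuclear genes only Ndufv3 was called, at a median over the members of 0.80, and without scaling 34 were called at a median of 1.52. The Ndufv3 row called here (ENSRNOG00000027593) was tested only through the libraries given hydrocortisone, where it was high. Its calls in these fits are therefore no separate support. Among all genes, 951 were higher and 1080 lower with the scaling, 1809 and 233 without it, and 357 and 219 with TPM recomputed over nuclear genes.

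In BGZ_L against CON 0 of 106 passed, as did 0% of all genes tested, with an unadjusted p under 0.05 in 0 mitochondrial and 4 nuclear members (limma). The mitochondrial median was -0.28 and the nuclear one 0.01, with 49 of 93 nuclear members above 0. With TPM recomputed over nuclear genes they were -0.56 and -0.27, with 21 of 93 above 0, where the median of all genes was -0.21. Below 0 the smallest p values belonged to the assembly factor Ndufaf4 (-0.74, adjusted p = 0.53, limma) and to Cox6b2 (-1.12, adjusted p = 0.673, limma). Above 0 they belonged to the assembly factor Ndufaf1 (0.70, adjusted p = 0.747, limma) and to Atp5pb, a peripheral-stalk subunit of complex V (0.85, adjusted p = 0.81, limma). In KYDS+BGZ_L against KYDS 0 of 106 passed, where 0.118% of all genes did (0.0506% higher and 0.0675% lower), with an unadjusted p under 0.05 in 0 mitochondrial and 6 nuclear members. In that comparison 12 of 13 mitochondrial members were above 0, at a median of 0.73, and 89 of 93 nuclear members, at a median of 0.41. Without scaling the nuclear median was -0.04, with 39 of 93 above 0, where the median of all genes was -0.36, and with TPM recomputed over nuclear genes it was 0.14, with 74 of 93 above 0, where that of all genes was -0.24. The smallest p values above 0 were those of Atp5if1 (0.82, adjusted p = 0.695, limma) and the assembly factor Ndufaf6 (1.10, adjusted p = 0.761, limma), and below 0 those of the assembly factors Ndufaf7 (-0.36) and Ndufaf4 (-0.21).

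Genes that copy, process and regulate the mitochondrial genome were listed with the members. Of 13 genes of mitochondrial transcription and DNA replication tested, Polg alone passed, in both hydrocortisone comparisons. The medians of that list were -0.101 in KYDS against CON and 0.16 in KYDS+BGZ_L against BGZ_L. Of all genes tested, 2.45% rose in the first comparison and 8.02% in the second. Polg, the mitochondrial DNA polymerase, rose by 1.16 in KYDS against CON (SE 0.27, adjusted p = 0.0215) and by 1.11 in KYDS+BGZ_L against BGZ_L (SE 0.27, adjusted p = 0.0102). Cox15, which makes heme A for complex IV, rose by 1.03 and 1.35 (adjusted p = 0.0367 and 0.00435), and Fastkd1, a mitochondrial RNA-binding protein, fell by 1.35 and 1.24 (adjusted p = 0.043 and 0.031). The polymerase Polrmt had -0.62 and -0.54, the packaging factor Tfam 0.53 in both, Tfb2m -0.06 and 0.03, Lrpprc -0.12 and 0.25, and Slirp -0.48 and 0.35, and none of these passed.

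Of 13 transcriptional regulators of mitochondrial genes, 0 passed in KYDS against CON, and 1 rose and 3 fell in KYDS+BGZ_L against BGZ_L. In that second comparison 8.02% of all genes tested rose and 9.11% fell. The 3 were Ppargc1a, the coactivator of mitochondrial biogenesis (fell by 3.03, adjusted p = 0.00468, limma), Esrrg (fell by 3.37, adjusted p = 0.00264) and Ppara (fell by 2.04, adjusted p = 0.0234), and Nrip1, a corepressor, rose by 0.63. Nrip1 lay near the filter limit of 0.5 scaled TPM, with at most 0.293 in BGZ_L and 0.404 to 0.528 in KYDS+BGZ_L. No BGZ_L library reached that limit, so Nrip1 was tested only through the other groups. In KYDS against CON Ppargc1a, Esrrg and Ppara had -1.60, -1.99 and -0.72, with adjusted p of 0.133, 0.0633 and 0.485 (limma). Mean scaled TPM of Ppargc1a was 6.85 ± 1.95 in CON, 14.0 ± 13.2 in BGZ_L, 2.83 ± 3.34 in KYDS and 1.08 ± 1.21 in KYDS+BGZ_L (SD, n = 5 each). Nrf1, Gabpa and Esrra did not pass, at -0.66 and -0.63, -0.40 and 0.16, and 0.30 and 0.16.

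Cytochrome c, Cycs, rose by 1.16 in KYDS+BGZ_L against BGZ_L (SE 0.30, adjusted p = 0.0138), and Cyc1 had 0.68 (adjusted p = 0.105, limma). Of 13 genes of the tricarboxylic acid cycle, Idh3g fell in both comparisons, by 1.03 and 0.96 (adjusted p = 0.0299 and 0.0175), and Suclg1 rose by 1.02 in the second (adjusted p = 0.0433). The citrate synthase gene Cs had 0.68 and 0.55, and did not pass. Of 15 genes of the outer membrane and import, 0 passed in KYDS against CON. In KYDS+BGZ_L against BGZ_L Phb rose by 1.502 and Timm44 by 0.77, and Tomm70 fell by 1.09. Of the assembly factors outside the name rule, 0 of 7 for complex I passed in KYDS against CON, and 2 rose in KYDS+BGZ_L against BGZ_L (Timmdc1 by 1.45 and Tmem186 by 0.81). Of 19 for complex IV only Cox15 passed, in both comparisons, and of 6 for complex III and 4 for complex V none passed in either. Of 20 genes of mitochondrial RNA processing, Fastkd1 fell in both comparisons and Pnpt1 rose by 0.66 in the second. Of 6 genes of uncoupling and mitophagy, Sqstm1 rose by 0.81 in the second. Counts of these lists were taken with limma over all genes tested. Of all genes tested, 2.45% rose and 3.22% fell in KYDS against CON, and 8.02% and 9.11% in KYDS+BGZ_L against BGZ_L. Whether a list differed from these shares was not tested.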

How the data were processed

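RNA-seq of liver from 20 rats was analysed. Per the labels' protocols, RNA was DNase treated, TruSeq libraries were sequenced in pairs and only read 1 was used. The submitters' processing notes name the mouse builds GRCm38, mm10 and GRCm39, while the identifiers are rat Ensembl ones. No aligner or counter is named in the sources used here. Although the table's name speaks of raw counts, the deposited values have 2 decimals and sum to 914343 to 983962 per library, so they were read as TPM. The deposited TPM carry no depth, so the depth is unknown and limits, intervals and count tests that need it were not used. The sources do not state how the authors made these TPM.

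Scaling used an unweighted trimmed mean of log ratios with 30% of the log ratios and 5% of the mean levels removed from either tail. A gene was tested if 5 libraries or more reached a scaled TPM of 0.5, in 1 limma model of 4 groups (trended, robust prior, 16 residual degrees of freedom), two-sided, in 5 contrasts (R 4.3.3, limma 3.58.1). The script was tested on simulated data in which genes varied independently and no shift in mitochondrial share was set. That test does not cover such a shift. Figures used Python with matplotlib. Alternatives, including a filter, other scalings and leaving out each library, are in the closing section. The replicate numbers were checked as a pairing: 7 of 30 correlations were above 0.1 (-0.456 to 0.337), so no block was used.

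Named genes were all 13 mitochondrial genes, the 5 highest and 5 lowest that passed in each contrast (else the 2 smallest p per direction), a set of core subunits and isoforms, and named related genes; others were named after their values were seen. Members and lists were chosen with earlier results of these data known. Promoter sequences are from RefSeq (GRCr8). The values of 1 member are not reported here.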

Additional observations from a re-analysis of the deposited data

Results flagged for a closer look

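The 57 members that the naming rule picked or that passed in a comparison were screened within each group of 5 for a library set apart from the rest, by the gap to its nearest neighbour over the group's range against a limit of 0.71. Of 239 groups of values, the library sums included, 37 passed the limit, where chance flags about 1 in 20, and values of 1 library are not independent of each other.

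CON 2 was the highest CON library in all 13 mitochondrial genes, and the gap passed the limit in 11, with scaled TPM of 323341 in Mt-nd1 (others 47659 to 89372), 158174 in Mt-nd2, 184199 in Mt-nd3, 53031 in Mt-nd4, 76931 in Mt-nd4l, 55914 in Mt-nd5, 4132 in Mt-nd6, 258437 in Mt-cyb, 248199 in Mt-co2, 532419 in Mt-co3 and 443144 in Mt-atp6. Its scaling factor was the lowest of the 20 libraries, at 0.220, and its mitochondrial share the highest, at 90.1%. BGZ_L 3 was the highest BGZ_L library in all 13, and the gap passed in 8, with 70904 in Mt-nd2, 136431 in Mt-nd3, 26005 in Mt-nd4, 14149 in Mt-nd6, 115157 in Mt-cyb, 251004 in Mt-co2, 457619 in Mt-co3 and 380814 in Mt-atp6. Its scaling factor was 0.319, and the part of the scaling in these values was not tested. KYDS 4 was the highest KYDS library in 12 of 13, and the gap passed in 3, with 126245 in Mt-co1, 71277 in Mt-co3 and 98663 in Mt-atp8.

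Single nuclear members were also set apart. CON 3 was high for Ndufs1 (4.78 scaled TPM, others 1.78 to 2.49) and Sdhc (28.7) and low for Uqcrc1 (15.1). CON 2 was low for Cox6b1 ENSRNOG00000024309 (71.8). CON 5 was the only CON library with the Ndufv3 row ENSRNOG00000027593 above 0 (10.3), and BGZ_L 5 was high for that row (35.3), for Ndufc2 (32.9) and for Cox7c (223.7). KYDS 3 was high for Uqcrfs1 (77.7). Of the low assembly factors, Ndufaf1 was high in CON 3 (1.43) and low in BGZ_L 1 (0.377), and Ndufaf4 was low in CON 2 (0.499) and in KYDS 1 (0.806). Cox8b, a muscle isoform, had 1.05 in CON 3, where the other CON libraries were listed at 0, and 4.17 in BGZ_L 3.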

How the results depend on the processing

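Counts of called members were recomputed under 12 other settings and with each of the 20 libraries left out. Counts over all genes are given only for the scalings. Elsewhere changes in the members are not set against changes in all genes. The 8 lower mitochondrial calls of KYDS against CON became 0 without scaling, with TPM recomputed over nuclear genes and with only the 2 groups fitted, 5 without the filter, 3 without CON 2 and BGZ_L 3, 2 without BGZ_L 1 and KYDS 3 (a setting added after seeing the data), and 1 to 12 with 1 library left out. The 2 nuclear calls became 65 without scaling, where 5867 of all genes were higher and 66 lower. They became 1 with nuclear TPM, where 75 of all genes were higher and 17 lower. The count was also 1 without the filter, with 2 groups, with the replicate block and without CON 2 and BGZ_L 3. With 1 library left out it was 1 to 8. In KYDS+BGZ_L against BGZ_L the 0 mitochondrial calls became 1 with 2 groups and 0 to 1 with 1 library left out. The 20 nuclear calls became 34 without scaling, where 1809 of all genes were higher and 233 lower. They became 1 with nuclear TPM, where 357 of all genes were higher and 219 lower. The count was 32 with 2 groups, 11 without CON 2 and BGZ_L 3, and 8 to 29 with 1 library left out. The counts of 0 in the other 3 contrasts were 0 in every setting run. The replicate block gave 8 mitochondrial calls in KYDS against CON and 15 nuclear calls in KYDS+BGZ_L against BGZ_L, and only 2 of the 20 libraries correlated best with a library of their own number.

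Some log2 fold changes of members that did not pass changed sign. Removing the scaling moved the median of all genes to 1.03 in KYDS against CON and 0.63 in KYDS+BGZ_L against BGZ_L. Without it, in the first of these, Ndufs3 became 0.442, Ndufaf3 0.651, Sdhb 1.225, Ndufs1 0.878 and Uqcrc2 1.138. In the second, Mt-nd4 became 0.358, Ndufaf3 0.183, Ndufs3 0.193 and Sdhb 0.885, and Sdhb was 0.135 with nuclear TPM and 0.048 without CON 2 and BGZ_L 3. Without BGZ_L 1 and KYDS 3, Atp5f1a was -0.016 and Cox5a -0.004 in the first comparison, and Sdha -0.062 and Uqcrc2 -0.115 in the second. With 1 library left out, Atp5f1a ran from -0.016 to 0.646 and Cox5a from -0.004 to 0.418 in the first, and Sdhb from -0.099 to 0.071, Ndufs1 from -0.060 to 0.367, Sdha from -0.106 to 0.169 and Uqcrc2 from -0.121 to 0.219 in the second. For all of these, the cause was not tested. The TPM carry no depth, so limits of detection could not be set.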

Other observations

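The share of the TPM outside mitochondrial genes was also summed by complex for the nuclear members. Complex IV held 0.457% ± 0.141 in CON, 0.410% ± 0.232 in BGZ_L, 0.699% ± 0.194 in KYDS and 0.779% ± 0.190 in KYDS+BGZ_L (SD, n = 5 each), and complex V held 0.975% ± 0.355, 0.853% ± 0.505, 1.33% ± 0.295 and 1.35% ± 0.294 in the same order. The accessory subunits of complex I held 0.750% ± 0.295, 0.668% ± 0.394, 0.993% ± 0.227 and 1.09% ± 0.221, and complex III 0.285% ± 0.0866, 0.264% ± 0.148, 0.384% ± 0.117 and 0.390% ± 0.0857. The core subunits of complex I held 0.103% ± 0.0331, 0.0988% ± 0.0507, 0.0891% ± 0.0108 and 0.0983% ± 0.0170, and complex II 0.0398% ± 0.0158, 0.0455% ± 0.0250, 0.0445% ± 0.00773 and 0.0472% ± 0.00921. The ranges of the groups overlapped in each of these complexes, and the sums were not tested.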
